A study of Homo sapiens with 15 samples.

Results

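CD44 and 9 integrin genes were followed in A549 cells given the cytokine interleukin-13 (IL-13). The members are all probe sets of the array that carry the symbol CD44, ITGA2, ITGA3, ITGA5, ITGA6, ITGAV, ITGB1, ITGB4, ITGB5 or ITGB8, and there are 29 of them among 22283, standing for 10 genes of 11963 that have a probe set with a single symbol. CD44 has 8 probe sets, ITGB1 has 5, ITGB4 and ITGB5 have 4 each, ITGA6 and ITGB8 have 2 each, and ITGA2, ITGA3, ITGA5 and ITGAV have 1 each. No probe set names a member together with another gene.

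A549 is a human lung adenocarcinoma line of epithelial origin that the labels call bronchial. Total RNA was measured on 15 arrays of the Affymetrix human U133A type in 5 groups of 3 arrays: untreated cells taken at 0 h (ctr_0h) and at 24 h (ctr_24h), and cells taken 4 h, 12 h and 24 h after IL-13 (IL13_4h, IL13_12h, IL13_24h). All groups are of a single cell line, the dose of IL-13 is not given in the labels, and only the 24 h time has an untreated group of its own. A difference between IL-13 at 4 h or 12 h and 0 h thus cannot be told apart from time in culture. The same holds for IL-13 at 24 h against 0 h, taken alone, and for differences between IL-13 times. Arrays of a group carry the letters a, b and c, and the labels do not say whether these were separate cultures, so each p-value measures only how these arrays vary, and that variation may be technical.

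Integrins are cell surface receptors made of an alpha and a beta chain that bind matrix outside the cell and the actin or keratin skeleton inside it. The pairing sets the ligand: ITGA2 with ITGB1 binds collagen, ITGA3 and ITGA6 with ITGB1 and ITGA6 with ITGB4 bind laminin, ITGA5 with ITGB1 binds fibronectin, and ITGAV with ITGB5 or ITGB8 binds ligands with an arginine-glycine-aspartate motif, among them vitronectin and latent TGF-beta. CD44 is not an integrin but a single-chain receptor for hyaluronan, a large sugar polymer of the matrix, and is made in many spliced forms. In airway epithelium these receptors hold basal cells to the basement membrane and serve in migration over a wound.

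The promoter windows of CD44 and ITGA2 are shown because of the group means of their representative probe sets. At every IL-13 time the mean was above both untreated groups for CD44 and below both for ITGA2. By the threshold given below, ITGA2 differed only at 12 h against 0 h. Both windows are the 250 bases before the gene's start in the RefSeq table of build GRCh38.p14, on the plus strand, at chr11:35138921-35139170 and chr5:52989102-52989351. Capitals mark the GC box GGGCGG on either strand.
CD44: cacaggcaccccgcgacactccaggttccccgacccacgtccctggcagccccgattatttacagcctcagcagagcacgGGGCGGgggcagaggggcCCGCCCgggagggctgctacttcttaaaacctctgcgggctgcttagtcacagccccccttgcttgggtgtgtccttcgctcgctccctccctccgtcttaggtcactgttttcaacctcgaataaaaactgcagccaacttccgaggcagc
ITGA2: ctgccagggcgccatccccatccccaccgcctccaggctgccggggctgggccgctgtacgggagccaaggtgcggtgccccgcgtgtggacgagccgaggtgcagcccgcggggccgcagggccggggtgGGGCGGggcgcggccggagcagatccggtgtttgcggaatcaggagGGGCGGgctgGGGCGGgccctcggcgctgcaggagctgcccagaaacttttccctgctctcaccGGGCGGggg
The CD44 window holds 2 GC boxes and the ITGA2 window 4, and 42.6% of all 35116 windows of the same length hold at least 1. TTC and GAA with any 4 bases between them, a form bound by STAT6, and TGACTCA, a form bound by AP-1, were also searched on both strands, and neither was in these windows. They are in 5.38% and 4.2% of all windows.

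Signal is given below as deposited, on a linear scale, and can be compared between arrays for 1 probe set but not between probe sets. Log2 differences are of log2(signal + 20) after quantile normalization, with the standard error (SE) and n = 3 arrays per group. The added 20 understates the change of dim genes. A gene is represented by its brightest probe set, and a gene was called when its adjusted p in limma, by Benjamini-Hochberg over 6884 tested genes, was under 0.05. Of the 29 member probe sets 19 were above the filter on dim probe sets, the median of all that are no control, and 9 of the 10 genes were tested. ITGB8 was too dim. Median signal per array ran from 56.7 to 72.5, highest in ctr_24h (69.5 ± 3.10, SD, n = 3) and 59.1 ± 1.80 in ctr_0h, and the 3'/5' ratio of the beta-actin control sets, a measure of RNA integrity, was 1.001 ± 0.065 in ctr_0h, 1.17 ± 0.0663 in ctr_24h and 1.18 ± 0.0808 in IL13_24h. In IL13_24h the median signal was 59.3 ± 4.44, also below that of its matched control ctr_24h. The part of median signal or RNA integrity in the differences between 0 h and 24 h was not tested. Nor was their part in those between IL13_24h and ctr_24h. Keratins KRT8, KRT18 and KRT7, which mark epithelium, had mean signals of 4663, 11242 and 3266. EPCAM, an epithelial adhesion protein, had 53.9 and was under the filter, as were the basal keratin KRT5 (28.9), the ciliated cell factor FOXJ1 (12.5) and the leukocyte marker PTPRC (12.5). The epithelial markers KRT19 (161) and CDH1 (100) were above the filter. Of alveolar type II cell markers SFTPC (70.0) was above it and SFTPB (33.4) under it. Of 11 markers of leukocytes, endothelium and fibroblasts 2 were above the filter, PECAM1 and COL1A1, and the summed signal of the 11 was 239 to 321 in IL13_24h against 361 to 455 over the arrays of the other groups. COL1A1 had the largest mean signal of the 11, at 129 (48.6 to 178 over the arrays). All arrays are of a single cell line, and what lowered the sum was not tested.

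On its representative probe set 212063_at CD44, the hyaluronan receptor, was higher on every IL-13 array than on every untreated array. Not all of its other sets showed this, and the share of all tested genes separated in this way was not counted. The signal of 212063_at in ctr_0h was 790.4, 793 and 729 on arrays a, b and c, and in ctr_24h it was 776, 907 and 897. It was 1088, 1097 and 1148 after 4 h of IL-13, 1239, 1238 and 1376 after 12 h, and 1407, 1195 and 1405 after 24 h. The group means thus ran 771 ± 36.2, 860.2 ± 72.9, 1111 ± 32.2, 1284 ± 79.2 and 1336 ± 122 (SD), and the lowest IL-13 array stood above the highest untreated one.

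Against untreated cells of the same time, CD44 rose 1.42-fold at 24 h (0.51 ± 0.09 on the log2 scale, 95% interval 0.32 to 0.70, adjusted p = 0.00271 in limma), higher in 3 of 3 arrays. It was the only one of the 9 tested members to pass, where 7% of all tested genes were called in either direction, 3.94% higher and 3.07% lower, and 14.2% were higher with no overlap between the groups. By scaling each array to its median the difference was 0.80, with the median of all tested genes itself moved from 0.0016 to 0.14 and 13.8% of genes called higher and 0.959% lower. By the mean of all 8 CD44 sets it was 0.37 (adjusted p = 0.0253 in limma). CD44 passed in all 18 other settings tried.

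CD44 had already risen at 4 h, by 1.43-fold against 0 h (0.52 ± 0.09, adjusted p = 0.00455 in limma), where 1.22% of tested genes were called, 0.349% higher and 0.872% lower, and 7.99% were higher with no overlap. At 12 h it stood 1.64-fold above 0 h (0.71 ± 0.09, adjusted p = 0.000175 in limma), with 4.14% of genes called, 1.55% called higher and 11.6% higher with no overlap, and at 24 h 1.70-fold above it (0.76 ± 0.09, adjusted p = 5.12e-05 in limma), with 6.87% called, 3.4% higher and 3.47% lower. These comparisons share the 0 h arrays. Between neighbouring times of IL-13 CD44 did not pass. The difference from 4 h to 12 h was 0.19 ± 0.09 (interval 0.0049 to 0.38, adjusted p = 0.484 in limma) with the arrays not overlapping, as for 7.83% of tested genes higher and 7.12% lower, and from 12 h to 24 h it was 0.05 ± 0.09 (interval -0.14 to 0.24, adjusted p = 0.805 in limma). In untreated cells CD44 stood 0.25 ± 0.09 higher at 24 h than at 0 h and did not pass (adjusted p = 0.122 in limma), where 3.62% of tested genes were called, 1.73% higher and 1.89% lower. That difference was -0.03 with median scaling and -0.01 with the mean of its probe sets, so its sign was not settled. By the mean of its 8 probe sets the 4 h difference was 0.25 and its call was lost (adjusted p = 0.259 in limma), and the 24 h difference from 0 h was 0.36 and kept its call.

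**Figure D1:**
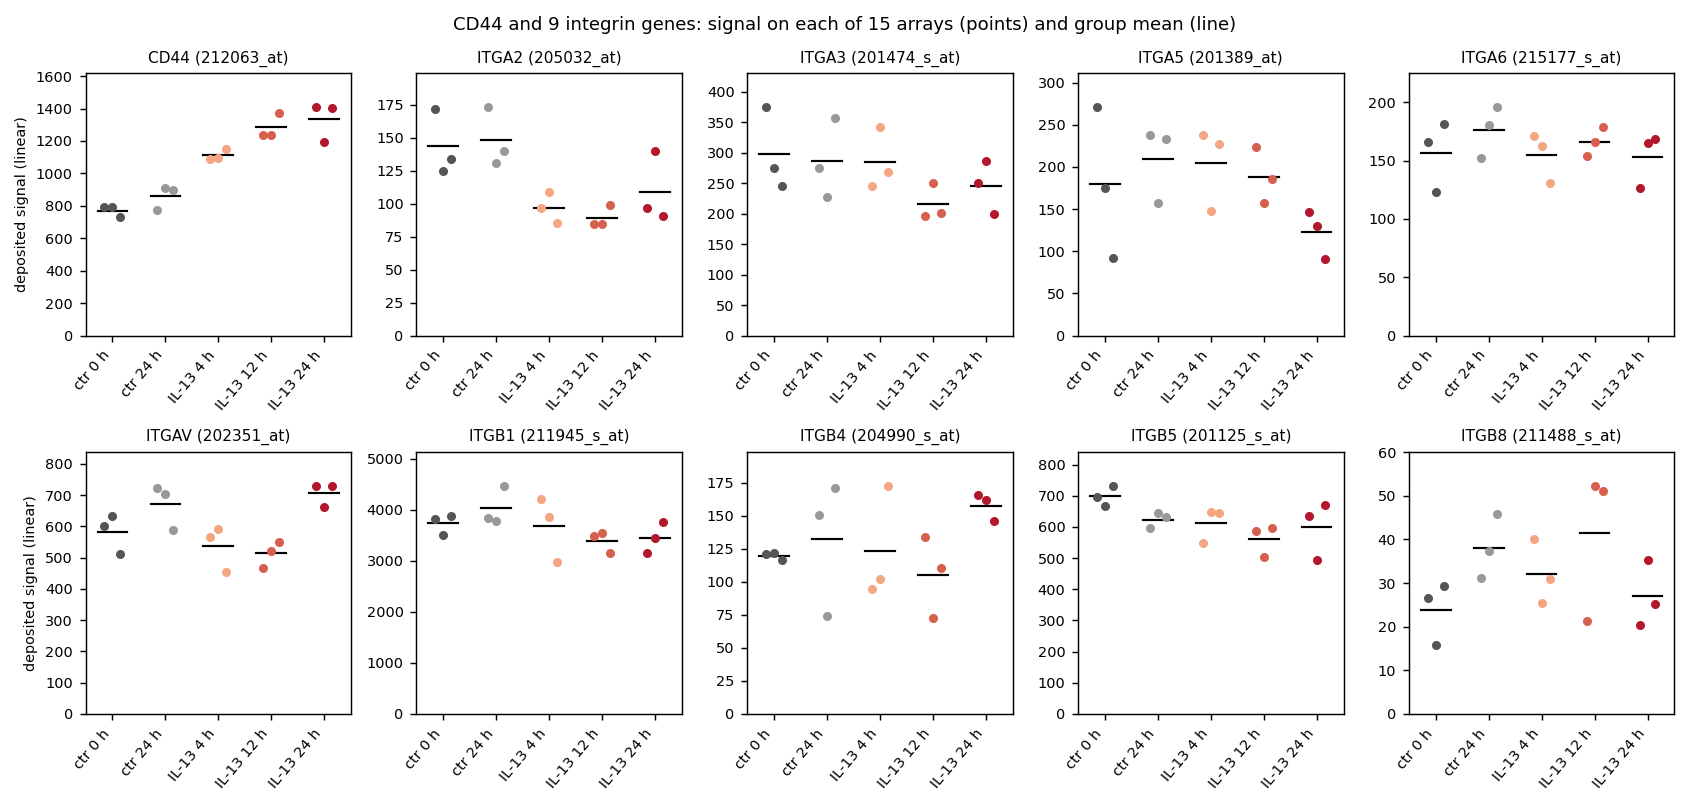
Deposited signal (linear, vertical axis from 0) of the representative probe set of each of the 10 member genes on the 15 arrays, with 1 point per array and a line at each group mean of 3 arrays. CD44 runs from a mean of 771 in ctr_0h to 1336 in IL13_24h, while ITGA6 stays between group means of 153 and 176.

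The 8 CD44 probe sets did not all move alike. When each of 19065 probe sets with 1 symbol was tested by itself, with no filter, 4 of the 8 were called higher at 24 h against the matched control, where 2.15% of all sets were called and 1.27% were called higher. These were 212063_at (1.42-fold), 204490_s_at (1.48-fold, adjusted p = 0.0366), 209835_x_at (1.94-fold, adjusted p = 0.000705) and 212014_x_at (1.96-fold, adjusted p = 0.00324), all by limma. The last 2 are of the _x_at kind, which can cross-hybridize. On 209835_x_at the signal was 539, 545 and 534 in ctr_24h and 1216, 1265 and 919.8 in IL13_24h. On 212014_x_at it was 479, 492 and 403 against 1252, 892 and 770.0. Neither set overlapped between these groups, where 14.2% of tested genes were higher with no overlap. The IL-13 arrays were more spread than the control arrays on both sets.

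Another bright set, 204489_s_at, also stood higher on all 3 arrays at 24 h (1.43-fold, adjusted p = 0.0516 in limma) and did not pass. Its signal was 491, 508 and 634 in ctr_24h, 819, 879 and 758 in IL13_24h and 798, 621 and 680 in ctr_0h, so the IL-13 arrays at 24 h overlapped those at 0 h. The remaining bright set, 210916_s_at, stood at -0.08 ± 0.20 at 24 h against the matched control (adjusted p = 0.905 in limma). Its mean signal was highest after 12 h of IL-13, with arrays at 499, 591 and 504, against 420, 332 and 436 in ctr_0h and 438, 330.0 and 325 after 24 h, and no comparison of it passed. The dim pair, 217523_at and 216056_at, was under the filter, at mean signals of 55.3 and 16.9, and neither passed in any comparison.

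The 4 sets called at 24 h were also called at 12 h against 0 h, by 0.60 (209835_x_at) to 0.75 (204490_s_at) on the log2 scale, and at 24 h against 0 h, by 0.59 (204490_s_at) to 0.79 (212014_x_at). At 12 h the call of 212014_x_at was lost with median scaling (adjusted p = 0.106 in limma). At 12 h 1.47% of all sets were called and 0.572% were called higher, and at 24 h 2.4% and 1.22%. At 4 h 212063_at alone was called, with 0.393% of all sets called and 0.126% higher; the other bright sets stood between -0.06 and 0.47. In untreated cells between 0 h and 24 h the bright sets differed in sign, from -0.34 (209835_x_at) to 0.25 (212063_at), and none of the 8 was called by limma, where 1.36% of all sets were, though 3 had an unadjusted p under 0.05. With median scaling, 209835_x_at and 204489_s_at were called lower in that comparison. Across the 15 arrays 212063_at correlated at 0.82 with 204490_s_at, at 0.81 with 212014_x_at and 0.75 with 209835_x_at, at 0.32 with 204489_s_at and at 0.18 with 210916_s_at (Pearson's r, given as a description, over arrays that share time and treatment). The transcripts each set detects were not analysed here.

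**Figure D2:**
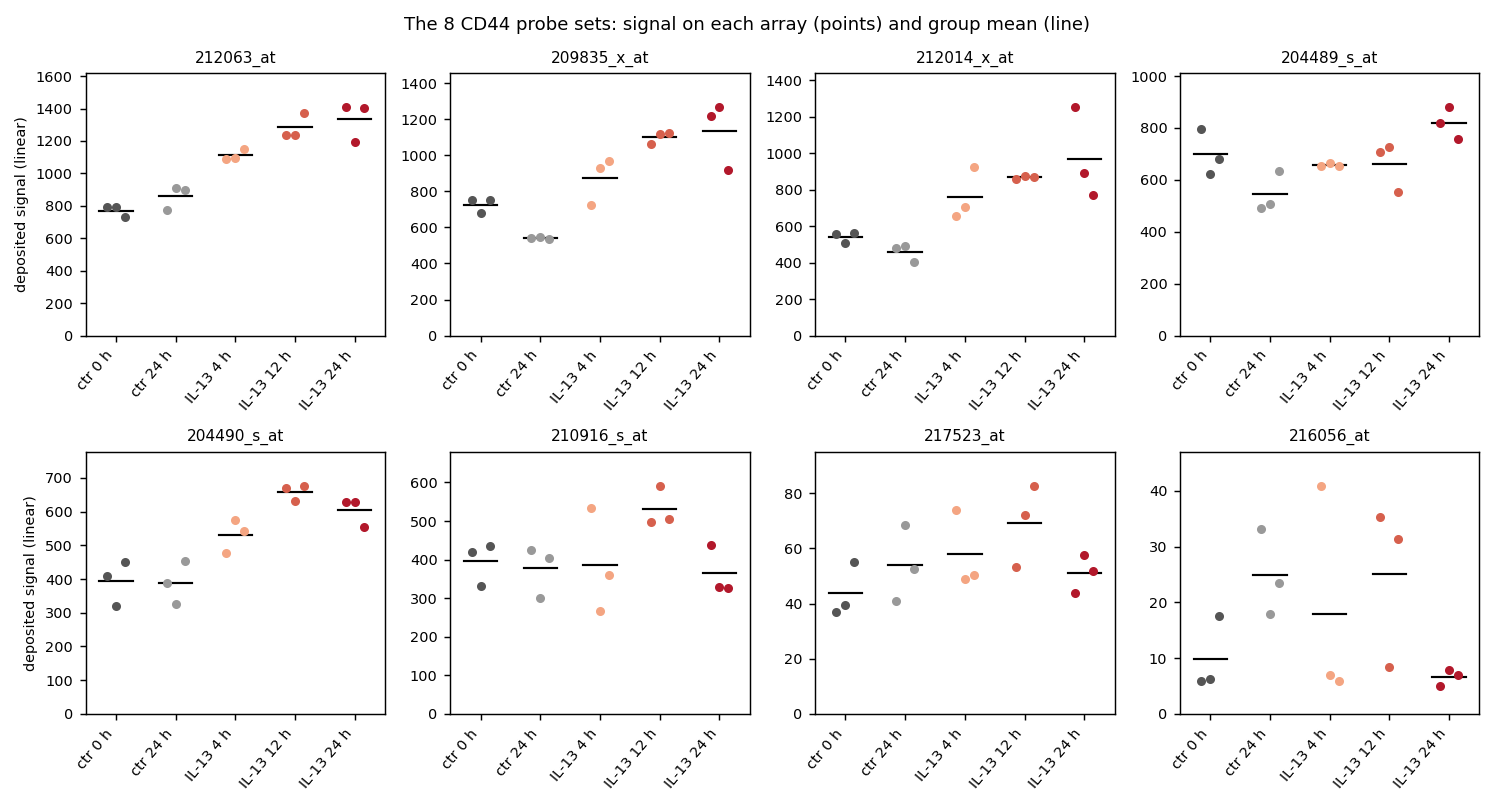
Deposited signal (linear, vertical axis from 0) of the 8 probe sets of CD44 on the 15 arrays, with 1 point per array and a line at each group mean of 3 arrays. The sets 212063_at, 209835_x_at, 212014_x_at and 204490_s_at are higher on all 3 IL-13 arrays at 24 h than on all 3 ctr_24h arrays and were called, 204489_s_at is higher but missed the threshold, and 210916_s_at overlaps between these groups.

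By a rule of likeness, the tested genes whose log2 values followed CD44 most closely over the 15 arrays were the transglutaminase TGM2 (r = 0.94), the transcriptional repressor BCL6 (r = 0.94) and MREG (r = 0.93). These are descriptions over arrays that share time and treatment.

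ITGA2, the alpha chain of the collagen receptor, was lower on the early IL-13 arrays than on the untreated ones. Its signal was 172, 125 and 134 in ctr_0h and 173, 131 and 139.7 in ctr_24h. It was 96.8, 109 and 85.1 after 4 h of IL-13, 84.4, 84.2 and 99.2 after 12 h, and 96.3, 139.9 and 90.9 after 24 h. The arrays at 4 h and 12 h lay wholly below those at 0 h, as did 9.36% and 12.1% of tested genes after normalization. Array b at 24 h of IL-13 lay within the untreated range.

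The fall of ITGA2 passed at 12 h against 0 h (-0.58 ± 0.15, interval -0.89 to -0.28, adjusted p = 0.0293 in limma), where 2.59% of tested genes were called lower. The call was lost with no filter (adjusted p = 0.0666 in limma), in the fit over all probe sets (adjusted p = 0.0729 in limma) and without any 1 of the 6 arrays compared (ctr_0h or IL13_12h array a, b or c), with differences of -0.64 to -0.48. At 4 h ITGA2 stood at -0.47 ± 0.15 (adjusted p = 0.167 in limma), where 9.36% of tested genes were lower with no overlap, and at 24 h at -0.29 ± 0.15 against the matched control (interval -0.60 to 0.02, adjusted p = 0.239 in limma). Untreated cells at 24 h and 0 h differed by -0.03 ± 0.15. Genes most like ITGA2 over the 15 arrays were the phosphatase PTP4A2 (r = 0.89), the tight junction protein TJP1 (r = 0.86) and the transcription elongation factor TCEA1 (r = 0.85).

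ITGB1, the beta chain shared by the collagen, laminin and fibronectin receptors, passed in none of the 7 comparisons. On its representative set 211945_s_at the signal was 3820.4, 3503 and 3881 in ctr_0h and 3841, 3777 and 4473 in ctr_24h. It was 4204, 3863 and 2984 after 4 h of IL-13, 3497, 3551 and 3146 after 12 h, and 3158, 3442 and 3759 after 24 h. At 24 h all 3 IL-13 arrays lay below the matched controls as deposited, though they overlapped after quantile normalization, and the difference of -0.23 ± 0.12 (interval -0.48 to 0.02) did not pass (adjusted p = 0.245 in limma). The other 4 ITGB1 sets were under the filter, with mean signals from 10.7 to 57.9, and none passed.

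Of the laminin-binding chains none passed in any comparison. ITGA3 stood lowest after 12 h of IL-13, at a signal of 197, 249.9 and 202, against 374, 274 and 246 in ctr_0h, with array b overlapping. Its difference there was -0.39 ± 0.18 (adjusted p = 0.267 in limma), and at 24 h against the matched control -0.19 ± 0.18, which ran from -0.35 without ctr_24h array b to -0.02 without ctr_24h array c. ITGA6 had the narrowest range of the tested members, with group means within 0.12 on the log2 scale on 215177_s_at. At 24 h against the matched control this set stood at -0.12 ± 0.14 (interval -0.42 to 0.17), and the other ITGA6 set, 201656_at, at 0.23.

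ITGB4, which pairs with ITGA6 in hemidesmosomes, the anchors of keratin filaments to the basement membrane, stood at 165, 162 and 146 after 24 h of IL-13 on its representative set 204990_s_at. In ctr_24h it was 151, 74.2 and 171, and after 12 h of IL-13 it was 134, 72.3 and 111. The 24 h and 12 h IL-13 arrays did not overlap, and their difference of 0.53 ± 0.24 did not pass (interval 0.04 to 1.03, adjusted p = 0.207 in limma). On the other bright sets, 204989_s_at and 211905_s_at, the same difference was 0.20 and -0.09, so the sign depended on the probe set. Against the matched control ITGB4 stood at 0.36 ± 0.24 (adjusted p = 0.365 in limma), and without ctr_24h array b at 0.05.

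ITGA5, the alpha chain of the fibronectin receptor, had the largest difference from the matched control at 24 h among the representative sets of the 8 tested integrins, none of which passed. Its signal was 238, 157 and 233 in ctr_24h and 146, 129.5 and 90.9 in IL13_24h, and the groups did not overlap. The difference was -0.64 ± 0.25 (interval -1.17 to -0.10, unadjusted p = 0.0223, adjusted p = 0.136 in limma), where 12.1% of tested genes were lower with no overlap. The 0 h arrays, at 271, 174 and 92.6, spanned both groups, and at 24 h against 0 h the difference was -0.38 ± 0.25. Genes most like ITGA5 over the 15 arrays were the mechanically gated channel PIEZO1 (r = 0.80), the basement membrane glycoprotein NID1 (r = 0.78) and G6PC3 (r = 0.77).

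ITGAV, the alpha chain of the vitronectin receptors, was lower at 12 h of IL-13 than at 24 h. Its signal was 467, 523 and 551 after 12 h and 730.3, 662 and 728 after 24 h, and the groups did not overlap. ITGAV rose 1.34-fold between these times (0.42 ± 0.11, interval 0.19 to 0.66, adjusted p = 0.0309 in limma), the only member called there, where 6.2% of tested genes were called, 4.14% higher and 2.06% lower. The call was lost with no variance trend (adjusted p = 0.0544 in limma), in the fit over all probe sets (adjusted p = 0.0585 in limma) and without IL13_12h array a or b or IL13_24h array a, b or c, with a difference of 0.36 to 0.48 over all 6 arrays left out in turn.

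In the matched control, ctr_24h, ITGAV was 722, 704 and 589.7, and the difference of IL13_24h from it was -0.01 ± 0.11 (interval -0.24 to 0.23, adjusted p = 0.982 in limma). With median scaling it was 0.25 and did not pass. At 0 h the signal was 602, 633 and 513, and untreated cells stood 0.28 ± 0.11 higher at 24 h than at 0 h (adjusted p = 0.166 in limma), a difference that was 0.02 with median scaling. IL-13 at 24 h stood 0.28 ± 0.11 above 0 h as well (adjusted p = 0.155 in limma), and these share the 0 h arrays.

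**Figure D3:**
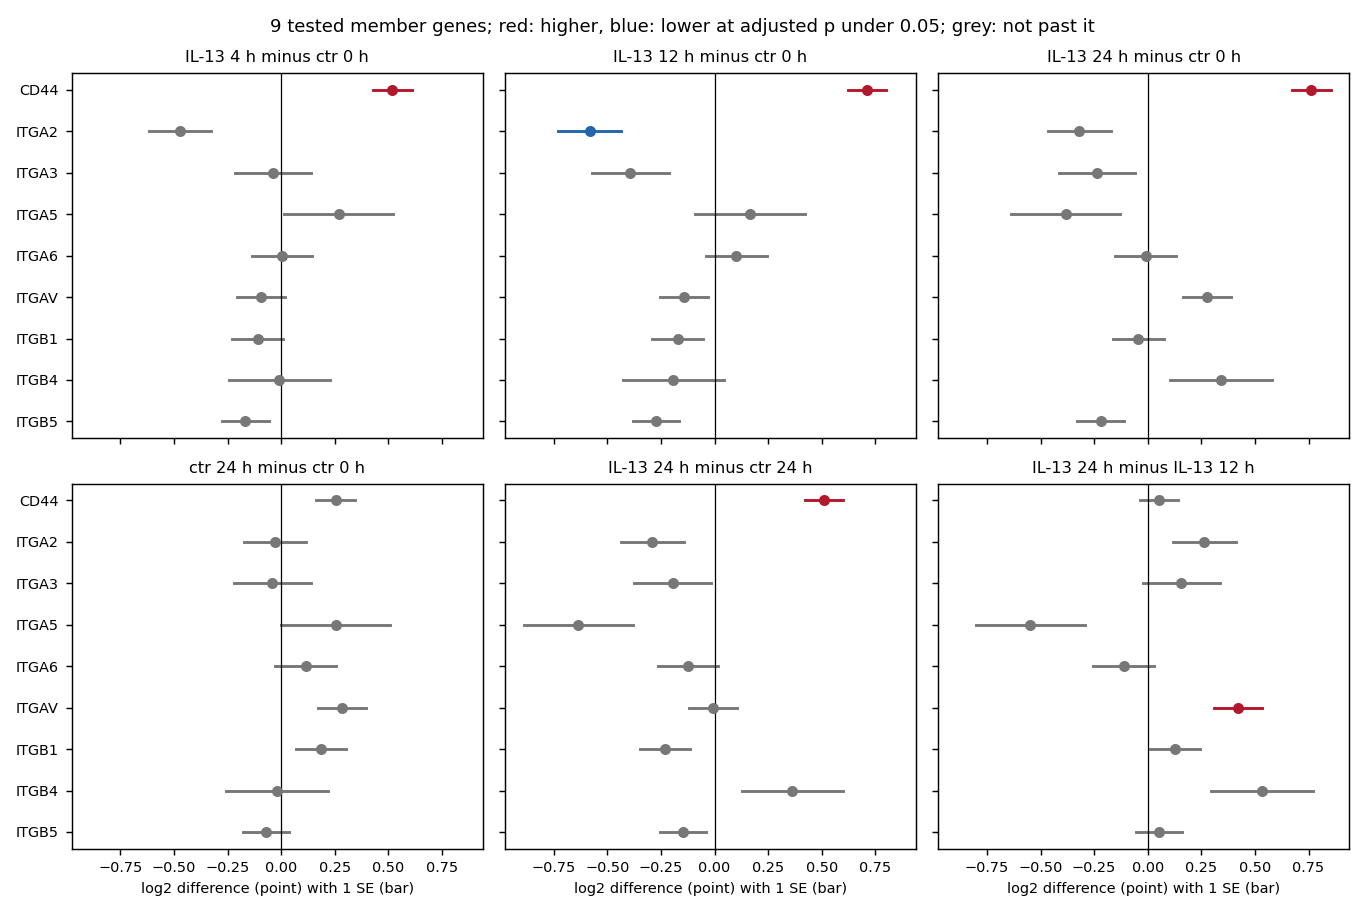
Log2 differences (horizontal axis) of the 9 tested member genes in 6 comparisons, with a point for the difference and a bar of 1 SE on each side, 3 arrays per group. CD44 is red (called higher) in each of the 4 comparisons of IL-13 with an untreated group, ITGA2 is blue (called lower) at 12 h against 0 h, ITGAV is red between 12 h and 24 h of IL-13, and all other points are grey.

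ITGB5, a beta partner of ITGAV, was called on one of its 4 probe sets and not on its representative set. On 201125_s_at the signal was 696, 667 and 732 in ctr_0h, 586, 503 and 597 after 12 h of IL-13 and 633, 493 and 671 after 24 h. The 12 h arrays lay below the 0 h arrays, as did 12.1% of tested genes, and the difference of -0.27 ± 0.11 did not pass (adjusted p = 0.189 in limma). The 4 h arrays, at 547 to 646, also lay below the 0 h arrays, as did 9.36% of tested genes. Untreated arrays at 24 h, at 596 to 645, lay below those at 0 h as deposited but overlapped them after normalization. On 214020_x_at the signal was 581, 566 and 404 in ctr_0h, 439, 337 and 392 after 4 h, 224, 297 and 146 after 12 h, and 495, 352 and 468 after 24 h. All 3 arrays at 12 h were below every other array of this set.

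This set fell 2.23-fold from 0 h to 12 h of IL-13 (-1.16 ± 0.20, adjusted p = 0.0101 in limma), where 0.902% of all sets were called lower. It rose 1.91-fold from 12 h to 24 h (0.94 ± 0.20, adjusted p = 0.0299 in limma), where 2.01% of all sets were called and 1.31% called higher. The same differences were -0.13 and -0.13 on 201124_at and -0.04 and -0.11 on 214021_x_at, which was under the filter. The fall and rise were thus seen on 1 set, of the kind that can cross-hybridize, and no test between the sets was made. With the mean of its 4 sets ITGB5 was called lower at 12 h against 0 h (-0.40, adjusted p = 0.0195 in limma). At 24 h against the matched control the 4 sets ran from -0.42 (201124_at) to 0.05 (214021_x_at) and none passed.

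**Figure D4:**
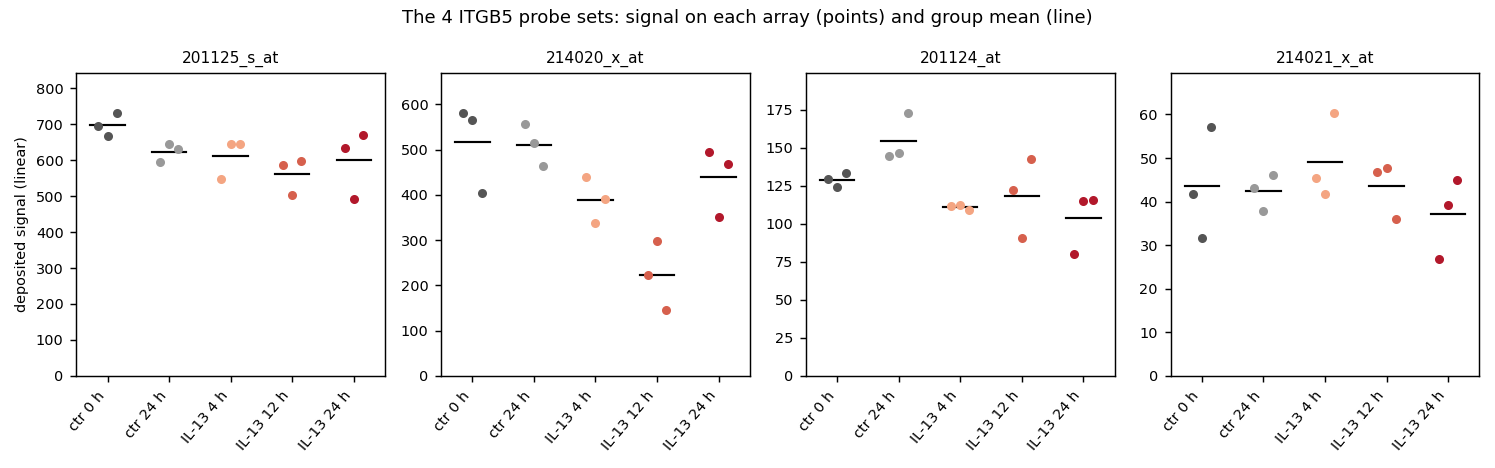
Deposited signal (linear, vertical axis from 0) of the 4 probe sets of ITGB5 on the 15 arrays, with 1 point per array and a line at each group mean of 3 arrays. On 214020_x_at the 3 arrays of IL13_12h, at 146 to 297, lie below all others, a pattern not called on the remaining 3 sets.

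ITGB8, the other beta partner of ITGAV and an activator of latent TGF-beta, was too dim to test, with mean signals of 32.5 on 211488_s_at and 20.8 on 205816_at. With no filter its brighter set passed in none of the 7 comparisons, and its difference from the matched control at 24 h was -0.14 ± 0.21 (adjusted p = 0.799 in limma). On 205816_at the signal was 29.0, 23.2 and 39.9 in ctr_24h and 8.55, 7.07 and 6.2 in IL13_24h, without overlap, but the difference of -0.73 did not pass (adjusted p = 0.163 in limma) and the other set overlapped. Of tested genes 12.1% were lower with no overlap there, and the share among dim sets was not counted. The IL13_24h signals lay under the pseudocount of 20, and the ctr_0h arrays of this set ran from 2.68 to 20.3.

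Set side by side, 1 of the 9 tested members was called at 24 h against the matched control, beside 7% of all tested genes. In untreated cells between 0 h and 24 h none was called, beside 3.62%, and 2 members had an unadjusted p under 0.05 in limma. Against 0 h 1 was called at 4 h, 2 at 12 h and 1 at 24 h, beside 1.22%, 4.14% and 6.87%. From 12 h to 24 h of IL-13 1 member was called, beside 6.2%. Between 4 h and 12 h of IL-13 no member was called, nor was any of the 6884 genes (0%), and 1 member had an unadjusted p under 0.05. The median difference of the 9 at 24 h against the matched control was -0.15, with 2 above 0 and 7 below it, beside 0.0016 over all tested genes. With median scaling it was -0.0062, with 4 above 0 and 5 below it, beside 0.14 over all tested genes. In untreated cells 3 members (CD44, ITGAV and ITGB1) were higher at 24 h with no overlap after normalization and none lower, beside 12.2% and 12.6% of tested genes. As deposited these 3 overlapped, and 1 member, ITGB5, was lower with no overlap. The shares of all tested genes were counted after normalization only. By sign, 5 of the 9 stood above 0 and 4 below it, which was 2 and 7 with median scaling. Between 12 h and 24 h of IL-13 3 members (ITGA2, ITGAV and ITGB4) were higher with no overlap after normalization and 1, ITGA5, was lower, beside 13.3% and 11.7%, while the deposited signals of ITGA2 overlapped. At 24 h against 0 h 3 members (CD44, ITGAV and ITGB4) were higher with no overlap and none lower, beside 13.7% and 13%. Over the 15 arrays the median r of the 28 integrin pairs was 0.07, from -0.43 (ITGA6 with ITGB4) to 0.61 (ITGA6 with ITGB1). CD44 correlated below 0 with 6 of the 8 tested integrins, most with ITGA2 (r = -0.74).

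Of 17 other integrin subunits 14 had a probe set and 3 were bright enough to test, and none passed in any of the 7 comparisons by limma (1 had an unadjusted p under 0.05 at 24 h against the matched control). Of 29 adaptors, kinases and membrane partners of integrins 25 were tested. At 24 h against the matched control 3 of these were higher and 1 lower, where 3.94% of all tested genes were called higher and 3.07% lower, with a list median of -0.04. The higher ones were the actin-linking adaptor PARVA (0.75 ± 0.17, adjusted p = 0.0152), the thrombospondin receptor CD47 (0.46 ± 0.12) and the tetraspanin CD9 (0.38 ± 0.10), and the lower one was SLC3A2, an amino acid transporter chain that binds beta integrins (-0.46 ± 0.12), all by limma. In untreated cells between 0 h and 24 h 5 of the 25 fell and none rose, where 1.89% of all tested genes were called lower and 1.73% higher (11.9% and 0.741% with median scaling), with a list median of -0.17 beside -0.0030 over all tested genes. PARVA (-0.83 ± 0.17) and CD9 (-0.47 ± 0.10) were among them, along with zyxin, ZYX (-0.81 ± 0.14), a protein of focal adhesions, so PARVA and CD9 stood lower in the 24 h control than at 0 h.

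Of 25 integrin ligands 19 were tested, and at 24 h against the matched control none rose and 4 fell, beside the same 3.94% higher and 3.07% lower of all tested genes, with a list median of -0.21. The 3 with the smallest p were the laminin chains LAMA5 (-0.78 ± 0.12, adjusted p = 0.000637) and LAMC1 (-0.50 ± 0.11) and the collagen COL1A1 (-0.78 ± 0.15), by limma. At 24 h against 0 h 8 of the 19 fell and 1 rose, where 3.47% of all tested genes were called lower and 3.4% higher, and at 12 h against 0 h 6 fell, where 2.59% were called lower. Of 19 ligands, enzymes, sheddases and linkers of CD44 12 were tested, and at 24 h against the matched control (3.94% of all tested genes higher, 3.07% lower) 1 rose, the CD44-binding proteoglycan SRGN (0.67 ± 0.17, adjusted p = 0.0246), and 1 fell, the hyaluronan-binding proteoglycan VCAN (-1.12 ± 0.13), by limma. From 12 h to 24 h of IL-13 2 of the 12 rose, where 4.14% of all tested genes did, ADAM10 (0.41 ± 0.10) and ADAM17 (0.47 ± 0.12), membrane proteases that shed CD44. Neither was called at 24 h against the matched control, and there is no untreated group at 12 h. The hyaluronan synthase HAS2 had a mean signal of 55.0 and was under the filter.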

How the data were processed

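The authors deposited 1 signal intensity per probe set and array on a linear scale. No source used here names the software. The 2%-trimmed mean was about 150.0 on each array, and no value was missing. To the intensities, a pseudocount of 20 (about their 25th percentile) was added, log2 taken and arrays quantile normalized. Symbols came from the platform annotation: 19065 probe sets have 1, 1043 several and 2107 none, and 68 are controls. Each gene was its brightest probe set, with _x_at sets used only where it had no other. Genes above the median probe set (log2 6.33, 50th percentile) were tested with limma 3.58.1 in R 4.3.3, with 1 mean per group over all 15 arrays, a variance trend and two-sided Benjamini-Hochberg adjusted p-values. A second limma fit took every probe set with 1 symbol. Intervals are 95%. The steps were tested on simulated data. Members and lists were chosen with earlier results of these data known. Named genes were all members, up to 3 called genes with the smallest p per list in the 24 h comparisons, and the 3 genes most correlated with each of the 3 members of widest range. CD47, ADAM10 and ADAM17 were named after their values were seen. Precision is limited by 3 arrays per group. Deposited, median and tested-gene median scaling, other pseudocounts (1, 62) and filters, the mean of probe sets, fewer groups, a constant variance, weighted arrays, a replicate block by letter and each array left out were tried.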

Additional observations from a re-analysis of the deposited data

Results flagged for a closer look

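ITGAV differed between IL-13 times by the fit's own test, at 0.42 log2 higher after 24 h than after 12 h. Its difference from 0 h was -0.14 at 12 h and 0.28 at 24 h. Neither of these passed. The call between 12 h and 24 h was lost in 6 of 18 other settings. Against the matched control at 24 h ITGAV stood at -0.01 (adjusted p = 0.982 in limma).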

How the results depend on the processing

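Of 1106 values of member genes under other settings, 1026 kept their direction and side of the threshold, 14 lost a call and 1 gained one, none called turned its sign, and 65 that were not called changed sign. Most of these values were of differences not called at first, which cannot lose a call. The ITGA2 call at 12 h was lost in 7 of 17 settings and the ITGAV call in 6 of 18. The CD44 call at 4 h was lost in 1 of 18, and the other CD44 calls in none. The count of member genes called at 4 h against 0 h was 0 with the mean of probe sets. At 12 h against 0 h it was 1 with no filter and with the filter at the 75th percentile, which left ITGA2 untested, and 1 to 1 without each array. At 24 h against 12 h of IL-13 it was 0 with no variance trend and 0 to 1 without each array. With median scaling the count of member probe sets called was 2 in ctr_24h against ctr_0h and 0 at 4 h against 0 h. With the replicate block (same-lettered arrays did not deviate together, r from -0.22 to 0.11) the member gene counts were the same: 1 at 24 h against the matched control, 0 in untreated cells, 1, 2 and 1 at 4 h, 12 h and 24 h against 0 h, 0 and 1 between IL-13 times. The counts of member probe sets were the same too but for 4 in place of 5 at 12 h against 0 h, where 212014_x_at lost its call (adjusted p = 0.0559 in limma). Median scaling moved the median of all tested genes by 0.14 at 24 h against the matched control and to -0.15 in ctr_24h against ctr_0h, where 0.741% were called higher and 11.9% lower. Scaling to the median of tested genes gave 6.32% higher and 2.28% lower at 24 h against the matched control and 1.57% and 3.92% in untreated cells. Median scaling gave 0.683% higher and 3.07% lower at 12 h against 0 h and 5.07% and 1.02% at 24 h against 12 h. The 10 dim member probe sets, both of ITGB8 among them, give no direction.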
